A study of Mus musculus with 175 samples.

Results

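The heme biosynthesis enzymes were examined as a group of 8 genes, Alas1, Alas2, Alad, Uros, Urod, Cpox, Ppox and Fech, chosen by their symbols from the 49585 mouse genes counted in single E14.5 fetal liver progenitors. Every symbol matched 1 gene of the deposited annotation. The cells carried reporters for both promoters of Runx1, GFP for P1 and hCD4 for P2 on 1 allele (Runx1 P1-GFP::P2-hCD4/+ in the protocol, P2-GFP::P2-hCD4/+ in the genotype label), on a cross of C57BL/6 with ICR. They were taken 14.5 days post fertilization and sorted as megakaryocyte-erythroid progenitors (MEPs) or common myeloid progenitors (CMPs), each divided by the P2 reporter. The paper states that the sequenced MEPs and CMPs were CD41- and CD150+, so CD150- progenitors were not covered. After filtering, 56 P2- and 47 P2+ MEPs and 27 P2- and 42 P2+ CMPs remained of 175 cells. The labels call the CMPs low and high and name no marker for it. They were read here as P2- and P2+, since the protocol names the hCD4 reporter as what divided both gates, so that reading is not stated by the labels and low need not mean none. For MEPs P2- means no hCD4 reporter at the cell surface, MEPs were sorted as CD34- and CMPs as CD34+, and all 4 populations shared the reporter alleles and the pool of livers. Livers of 2 litters were pooled before sorting, so each population was 1 sample, cells were not replicates, and no p-value was calculated.

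Heme is built from glycine and succinyl-CoA by a chain of enzymes that starts in mitochondria, passes through the cytosol and ends in mitochondria. The first enzyme, 5-aminolevulinate synthase, is encoded by 2 genes, the ubiquitous Alas1 and the erythroid Alas2 on the X chromosome. Alad joins 2 molecules of aminolevulinate into porphobilinogen, Uros closes the ring, Urod removes carboxyl groups, Cpox and Ppox act next as oxidases in mitochondria, and Fech inserts iron. Red cell precursors make most of the heme of the body for hemoglobin, and GATA1 and KLF1 are known regulators of erythroid heme genes. The enzyme between Alad and Uros was not analysed here.

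The genes lie apart in the genome (GRCm38, GENCODE vM21): Alas1 on chromosome 9 (106233455 to 106248654), Alas2 on X (150547375 to 150570638), Alad on chromosome 4 (62509169 to 62519918), Urod on chromosome 4 (116989965 to 116994413), Uros on chromosome 7 (133686243 to 133710072), Cpox on chromosome 16 (58670292 to 58717636), and Ppox on chromosome 1 (171275990 to 171281186). Reads were counted on exons without regard to strand, and reads between overlapping genes were left out by the counting. Exons of other genes covered 17.5% of the exon bases of Ppox (B4galt3), 15.5% of Alas2 (Apex2 and Mir3620), 7.53% of Alas1 (4930500F10Rik) and 3.06% of Cpox (Gpr15), and none of the bases of the other 4 genes, so the levels of Ppox and Alas2 were the least certain on this account.

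The promoters of Alas2, Cpox, Alad and Urod are shown because the results below turn on these genes. Alas2 was almost unread, Cpox differed most between the populations, Alad was read most, and Urod differed least among the 4 genes that shared 1 order of levels. Each sequence is up to 250 bases before the RefSeq start (GRCm38.p6), 5′ to 3′, with capitals for a GATA word (GATA with A or T before it and A or G after it) or a CACCC word (CCNCNCCC) on either strand, matches of 1 motif being allowed to overlap. The print of Alas2 stops 12 bases before the start, so positions given below do not count back from its end. It takes in 30 bases annotated as exon in GENCODE, and that of Alad 9.
Alas2 (chrX:150547167-150547404, plus strand): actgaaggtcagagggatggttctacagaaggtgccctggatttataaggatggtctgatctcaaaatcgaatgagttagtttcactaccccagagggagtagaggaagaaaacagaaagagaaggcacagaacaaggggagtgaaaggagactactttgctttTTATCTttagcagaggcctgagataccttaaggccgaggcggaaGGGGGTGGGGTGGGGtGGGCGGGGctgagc
Cpox (chr16:58669958-58670207, plus strand): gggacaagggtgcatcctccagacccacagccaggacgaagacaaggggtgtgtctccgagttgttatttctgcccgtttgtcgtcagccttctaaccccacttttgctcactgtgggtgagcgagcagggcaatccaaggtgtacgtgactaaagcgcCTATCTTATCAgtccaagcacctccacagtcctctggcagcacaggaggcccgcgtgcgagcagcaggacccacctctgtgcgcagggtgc
Alad (chr4:62519910-62520159, minus strand): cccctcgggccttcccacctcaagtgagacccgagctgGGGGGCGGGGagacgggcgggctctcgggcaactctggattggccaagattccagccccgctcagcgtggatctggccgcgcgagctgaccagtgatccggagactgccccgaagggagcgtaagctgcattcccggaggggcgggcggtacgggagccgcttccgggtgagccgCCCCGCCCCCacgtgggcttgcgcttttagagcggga
Urod (chr4:116994414-116994663, minus strand): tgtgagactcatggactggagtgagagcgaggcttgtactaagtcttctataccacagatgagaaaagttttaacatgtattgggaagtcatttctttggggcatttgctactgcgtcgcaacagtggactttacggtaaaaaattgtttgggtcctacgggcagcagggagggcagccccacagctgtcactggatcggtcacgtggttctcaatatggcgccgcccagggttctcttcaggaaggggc

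RefSeq promoters were used for 7 of the 8 genes, with 10 start sites in all, and Fech was not used. Cpox held 2 GATA words that share a base, starting 91 and 86 bases before the RefSeq start (positions -91 and -86). Alas2 held 1 GATA word at -86 and 4 CACCC words, and the upstream window of Uros at its second start held 2 GATA words. The shown Alad start held 4 CACCC words in 2 overlapping runs, and Urod and Ppox held neither motif. The second start of Alas1 held the palindromic word of NRF1, a known activator of Alas1, which 0.784% of promoters held. The windows of Alas1 lay mostly in exons of its other transcripts and are not printed. Of 32536 mouse promoters of the same length, 26.5% held a GATA word and 46.2% a CACCC word, so both motifs are common. Cpox had GATA words and no CACCC word, whereas Alad had the reverse.

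Read in pooled counts per 1000000 (CPM, summed reads of a gene over summed reads on mouse genes), the group was highest in the P2- MEPs. The summed level of the 8 genes was 1839 CPM in the P2- MEPs, 1062 in the P2+ MEPs, 517 in the P2- CMPs and 363.6 in the P2+ CMPs. Alad, Urod, Cpox and Fech each followed this same order, with no overlap of the exact Poisson 95% intervals of neighbouring populations. How many of all genes do so was not counted. In pooled level Alas1 ran the opposite way, from P2+ CMPs down to P2- MEPs, and its intervals overlapped between the 2 CMP populations. Its median cell did not take this order within the MEPs, at 1.20 CPM in the P2- and 0 in the P2+ MEPs. Ppox differed by 1.66-fold between its highest and lowest population and Uros by 2.10-fold, against 20.6-fold for Cpox, 6.33-fold for Fech, 6.01-fold for Alad, 3.65-fold for Urod and 3.19-fold for Alas1. Alas2 differed by 7.67-fold, but on 10 to 132 reads. These intervals cover counting error only, since reads were not marked by molecule and the livers were pooled.

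**Figure D1:**
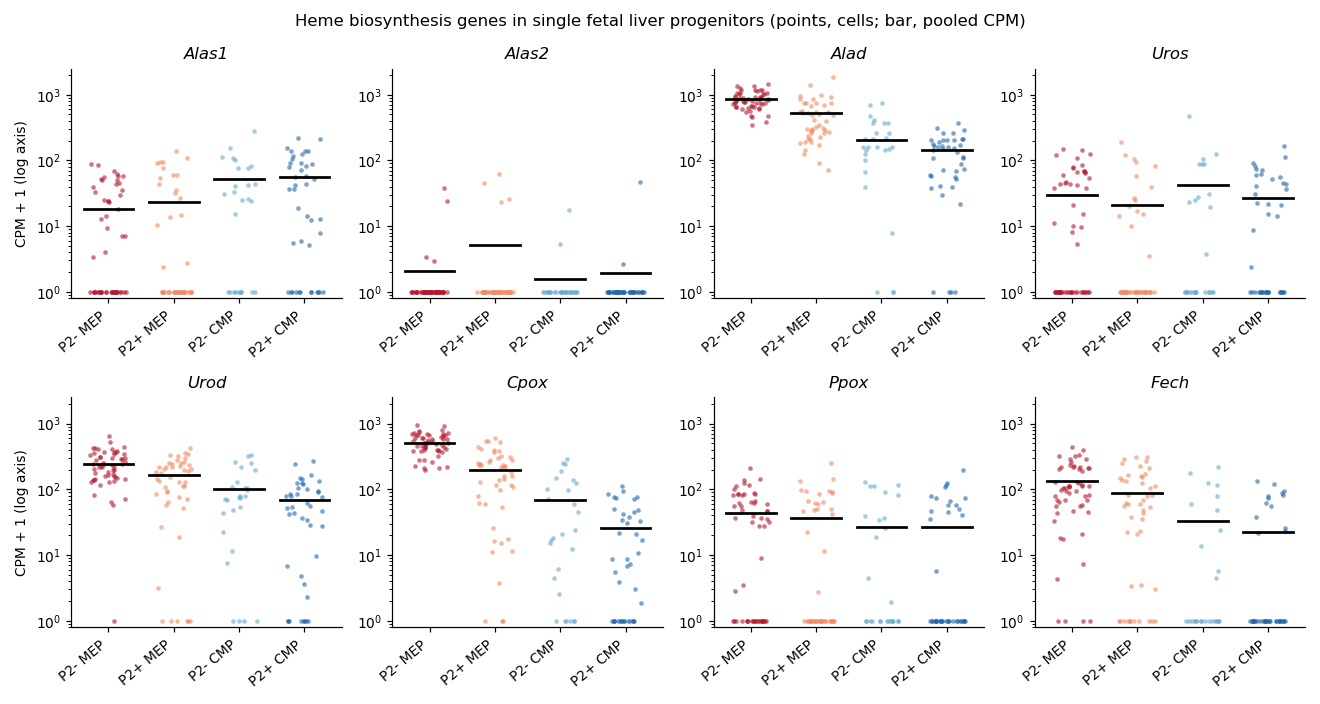
CPM + 1 of each of the 8 genes (log axis) in single cells of the 4 populations, where points are cells and bars the pooled CPM of a population. Alad, Urod, Cpox and Fech step down from P2- MEPs to P2+ CMPs, whereas Alas1 is higher in the CMPs and Alas2 lies at 0 in nearly every cell.

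Alas1, the housekeeping form of the first enzyme, was read at 17.3 CPM (95% interval 15.9 to 18.9) in the P2- MEPs, 22.1 (20.5 to 23.8) in the P2+ MEPs, 51.4 (48.1 to 54.8) in the P2- CMPs and 55.3 (52.9 to 57.8) in the P2+ CMPs. Single cells ran from 0 to 88.6 CPM (median 1.20) in the P2- MEPs, 0 to 139 (median 0) in the P2+ MEPs, 0 to 282.3 (median 24.7) in the P2- CMPs and 0 to 217.9 (median 35.99) in the P2+ CMPs. Cells without a read occurred in every population and the ranges overlapped throughout. The CMPs thus had the higher pooled level and also the higher median cell. After each cell was thinned to 100000 reads, Alas1 had a read in 25 of the 56 P2- and 15 of the 47 P2+ MEPs, and in 15 of the 27 P2- and 28 of the 42 P2+ CMPs.

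Alas2, the erythroid form, was hardly read in these progenitors. Only 33, 132, 10 and 35 reads fell on it in the P2- and P2+ MEPs and P2- and P2+ CMPs, which gave 1.08, 4.18, 0.545 and 0.963 CPM. These reads came from 4, 4, 2 and 2 cells, and the highest cell held 54.5%, 54.5%, 70.0% and 94.3% of them. The highest cell reached 60.5 CPM, in a P2+ MEP, while the median cell was at 0 in all 4 populations. After thinning, 2, 4, 1 and 1 cells had a read, so a level per population rests on single cells.

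The reads of the first enzyme therefore came mostly from Alas1. Per kb of exon, Alas2 made up 13.8% of both genes together in the P2- MEPs, 32.7% in the P2+ MEPs, 2.66% in the P2- CMPs and 4.28% in the P2+ CMPs. With the length of the principal transcript in place of all merged exons, a choice made after seeing the data, these shares were 8.61%, 22.3%, 1.58% and 2.57%. Without the cell of highest CPM of each gene and population, also chosen after seeing the data, they were 7.39%, 19.9%, 1.13% and 0.278%, so the share of Alas2 depended on single cells. Alas1 was the larger part in every population in each of these ways. In thinned cells the 2 genes were read together in 0 P2- MEPs, 0 P2+ MEPs, 1 P2- CMP and 1 P2+ CMP, whereas Alas1 alone was read in 25, 15, 14 and 27 cells and Alas2 alone in 2, 4, 0 and 0.

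Alad, which makes porphobilinogen, was the most abundant of the 8 genes. It was read at 857 CPM (847 to 868) in the P2- MEPs, 533 (525 to 542) in the P2+ MEPs, 201 (195 to 207.6) in the P2- CMPs and 143 (139 to 147) in the P2+ CMPs. Among cells it ran from 341.6 to 1465 CPM (median 823) in the P2- MEPs, 71.6 to 1869 (median 394) in the P2+ MEPs, 0 to 738 (median 161) in the P2- CMPs and 0 to 369.1 (median 140) in the P2+ CMPs. All MEPs had a read of Alad, and the spread relative to the mean was smallest in the P2- MEPs, with a coefficient of variation over cells of 0.296 against 0.720, 0.871 and 0.701. Of 47 P2+ MEPs, 22 lay below the lowest P2- MEP, 24 inside their range and 1 above it, so the highest and lowest MEPs for Alad were both P2+. Of 27 P2- CMPs, 20 lay below the lowest P2- MEP.

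Uros, which closes the porphyrin ring, was low and uneven. Its pooled levels were 28.9 CPM in the P2- MEPs, 19.9 in the P2+ MEPs, 41.7 in the P2- CMPs and 25.5 in the P2+ CMPs, and the intervals of P2- MEPs (27.1 to 30.9) and P2+ CMPs (23.9 to 27.2) overlapped. The highest P2- CMP, at 478 CPM, held 49.5% of the Uros reads of its population, while the median P2- CMP was at 0. The first place of P2- CMPs in the order of Uros thus rested on 1 cell.

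Urod, the decarboxylase that follows, was read at 245.2 CPM (239.7 to 250.8) in the P2- MEPs, 162 (158 to 167) in the P2+ MEPs, 99.1 (94.6 to 104) in the P2- CMPs and 67.2 (64.5 to 69.9) in the P2+ CMPs. The highest cell of the 4 populations had 652.7, 421, 328.5 and 269.3 CPM, the median cell 228.5, 141, 75.8 and 51.9, and the lowest cell 0 in each. The cell ranges overlapped fully at the low end, while the median and the highest cell stepped down from P2- MEPs to P2+ CMPs. After thinning, Urod was read in 55 of 56, 40 of 47, 23 of 27 and 32 of 42 cells.

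Cpox, the first of the late mitochondrial enzymes, showed the steepest gradient of the 8. It was read at 513 CPM (505 to 521) in the P2- MEPs, 197 (192 to 202) in the P2+ MEPs, 66.7 (63.0 to 70.6) in the P2- CMPs and 24.9 (23.3 to 26.5) in the P2+ CMPs. Single P2- MEPs ran from 199 to 937 CPM (median 506), P2+ MEPs from 0 to 609 (median 183), P2- CMPs from 0 to 291.2 (median 19.8) and P2+ CMPs from 0 to 112 (median 7.09). No P2+ CMP reached the lowest P2- MEP, and 24 of 47 P2+ MEPs and 24 of 27 P2- CMPs lay below it. The share of thinned cells with a read was 100% (Clopper-Pearson 95% interval 93.6 to 100%) in the P2- MEPs, 89.4% (76.9 to 96.5%) in the P2+ MEPs, 66.7% (46.04 to 83.5%) in the P2- CMPs and 45.2% (29.8 to 61.3%) in the P2+ CMPs. Without thinning the share in the P2+ CMPs was 64.3%, so many of these cells held few reads of Cpox.

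Ppox, the oxidase after Cpox, was flat by comparison. Its pooled level was 42.02 CPM (39.8 to 44.4) in the P2- MEPs, 35.3 (33.2 to 37.4) in the P2+ MEPs, 25.3 (23.005 to 27.7) in the P2- CMPs and 25.9 (24.3 to 27.6) in the P2+ CMPs. The median cell was at 32.5 CPM in the P2- MEPs and at 0 in the other 3 populations, and the highest cells had 207, 250, 129 and 194 CPM. The intervals of the CMP populations overlapped, and all cell ranges started at 0.

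Fech, the ferrochelatase that ends the pathway, was read at 134 CPM (130 to 138) in the P2- MEPs, 87.7 (84.5 to 91.0) in the P2+ MEPs, 31.5 (29.01 to 34.2) in the P2- CMPs and 21.1 (19.7 to 22.7) in the P2+ CMPs. The median cell was at 103 CPM in the P2- MEPs, 58.6 in the P2+ MEPs and 0 in both CMP populations. The highest cells had 439, 312.6, 220 and 132 CPM and the lowest were at 0 in each population. A read remained after thinning in 48 of the 56 P2- and 32 of the 47 P2+ MEPs but in 10 of the 27 P2- and 12 of the 42 P2+ CMPs, so the CMP level came from a minority of cells.

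**Figure D2:**
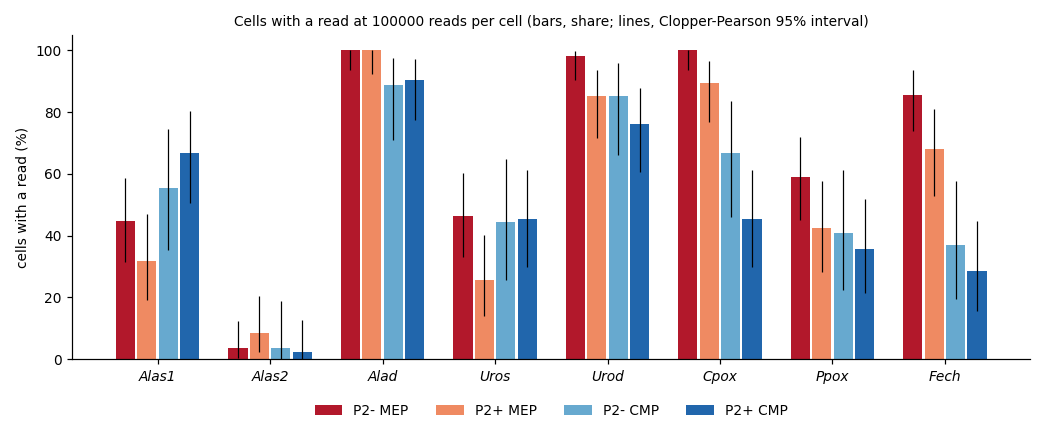
Share of cells with a read of each gene (percent) after thinning to 100000 reads per cell, with Clopper-Pearson 95% intervals as lines, by population. Alad and Urod were read in most cells of every population, Cpox and Fech were read less often in the CMPs, and Alas2 was read in at most 4 cells of a population.

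Levels were compared between genes per kb of exon, since longer genes collect more reads. Alad had the highest level per kb in all 4 populations, 458 CPM per kb in the P2- MEPs and 76.3 in the P2+ CMPs, and Urod was next, with 94.6 and 25.9. Alas2 was lowest in all 4, at 0.227 to 1.74 CPM per kb. The middle of the order differed between populations, and the third place went to Cpox in both MEP populations, to Uros in the P2- CMPs and to Alas1 in the P2+ CMPs. Without the cell of highest CPM, a choice made for this order after seeing the data, Uros fell from 11.7 to 6.15 CPM per kb in the P2- CMPs and Cpox took the third place with 8.59, so the place of Uros rested on 1 cell. Cpox stood at 77.0 CPM per kb in the P2- MEPs against 2.81 for Alas1, and at 3.73 against 8.96 in the P2+ CMPs, so the late enzyme was above the first enzyme in MEPs and below it in the P2+ CMPs. The length of the principal transcript put Cpox (166 CPM per kb) level with Urod (165) in the P2- MEPs and left the first and last places as they were. As a share of the summed level per kb, Alas1 made up 0.426% in the P2- MEPs and 6.91% in the P2+ CMPs, and Cpox 11.7% and 2.88%.

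The first comparison was between P2+ and P2- MEPs, which asks how the pathway differs with the reporter of the P2 promoter inside the MEP gate. Of the 8 genes, 6 had a lower pooled level in the P2+ MEPs, and Cpox was the gene past 2-fold, at 2.61-fold lower (log2 ratio -1.38, exact conditional 95% interval -1.42 to -1.34). Alad was 1.61-fold lower (-0.68, -0.71 to -0.66), Fech 1.52-fold, Urod 1.51-fold, Uros 1.46-fold and Ppox 1.19-fold. Alas1 was 1.27-fold higher (0.35, 0.18 to 0.52) and Alas2 3.88-fold higher (1.96, 1.40 to 2.55), the latter from 4 cells in each population. Counted at 2-fold, 1 of 8 genes was lower, where 2.77% of 9238 genes with a read in 25% of cells were lower, and 1 was higher, where 7.3% were higher. Of the 8 genes, 7 met that limit on low values and Alas2, the gene counted as higher, did not. The median log2 ratio was -0.57 over the 8 genes and 0.01 over the 9238. With the ERCC spike-in RNA as the denominator the median of all genes shifted by -0.62, 5 of the 8 genes were at least 2-fold lower, where 17.6% of all genes were, and Alas1 then lay at -0.27, below 0. Relative to that shift it stayed above the median of all genes.

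In single cells the lower P2+ MEP levels came with a wider spread relative to the mean, and the coefficient of variation was 0.818 for Cpox and 0.726 for Urod in P2+ MEPs against 0.343 and 0.513 in P2- MEPs. Of 47 P2+ MEPs, 43 lay below the median P2- MEP for Cpox, 40 for Alad, 35 for Urod and 30 for Fech. For Uros 33 did and for Ppox 29. For Alas1 29 did as well, although its pooled level was higher in the P2+ MEPs. A thinned cell held reads of a median of 5 of the 8 genes in both MEP populations, and of 6 or more in 26 of the 56 P2- against 9 of the 47 P2+ MEPs. Megakaryocyte genes ran against these levels, at a summed 46.6 CPM in the P2- MEPs and 398 in the P2+ MEPs. Of these, 6 of 6 were at least 2-fold higher in the P2+ MEPs, where 20.4% of 15769 genes with at least 10 reads were. Pf4, Gp9 and Gp1bb were at 0 in the P2- MEPs, but exons of other genes cover 92.9% of the exon bases of Gp1bb, so its count is uncertain. Itga2b, also in the list, encodes CD41, against which the cells were sorted. Late erythroid genes went the same way as the heme genes other than Alas1 and Alas2, at 484 and 149 CPM. Of these, 6 of 7 were at least 2-fold lower, where 12.5% of the 15769 genes were, and Epb42 was at 0 in the P2+ MEPs. The part of both lists in the difference of the heme genes was not tested.

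Between P2+ and P2- CMPs, 5 of the 8 genes were lower again. Cpox was 2.68-fold lower in the P2+ CMPs (log2 ratio -1.42, -1.55 to -1.30), Uros 1.63-fold, Fech 1.49-fold, Urod 1.48-fold and Alad 1.41-fold lower. Alas1 (0.11, -0.01 to 0.22), Ppox (0.04, -0.12 to 0.20) and Alas2 (0.82, -0.23 to 1.999) had counting intervals that included 0. With ERCC reads as the denominator, where the median of all genes shifted by 0.33, Alas1 was at 0.44 and Ppox at 0.37. Cpox was the 1 gene of 8 at least 2-fold lower, where 4.57% of 9238 genes were, and 0 of 8 were at least 2-fold higher, where 3.6% were. The median was -0.53 over the 8 genes and -0.03 over all genes. All P2+ CMPs lay within the range of P2- CMPs for Alad, Urod, Cpox and Fech, and 25 of 42 lay below the median P2- CMP for Cpox and 25 for Alad.

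Part of these CMP ratios turned on single cells. Without the cell of highest CPM in each population Uros was at -0.07 in place of -0.71, and Alas2 at -1.58 in place of 0.82. Alas1, of which 1 P2- CMP held 30.5% of the reads, was then at 0.45 in place of 0.11, above its counting interval. A P2- CMP whose subtype label names MEP was kept as a CMP, and without it Cpox was at -1.28 and Fech at -0.42. Granulocyte and monocyte genes had a summed 435 CPM in the P2- CMPs and 698 in the P2+ CMPs, with 1 of 7 at least 2-fold higher and 1 lower in the P2+ CMPs and none at 0, and Klf1 was read at 87.4 and 4.59 CPM. Whether these had a part in the levels of the heme genes was not tested.

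**Figure D3:**
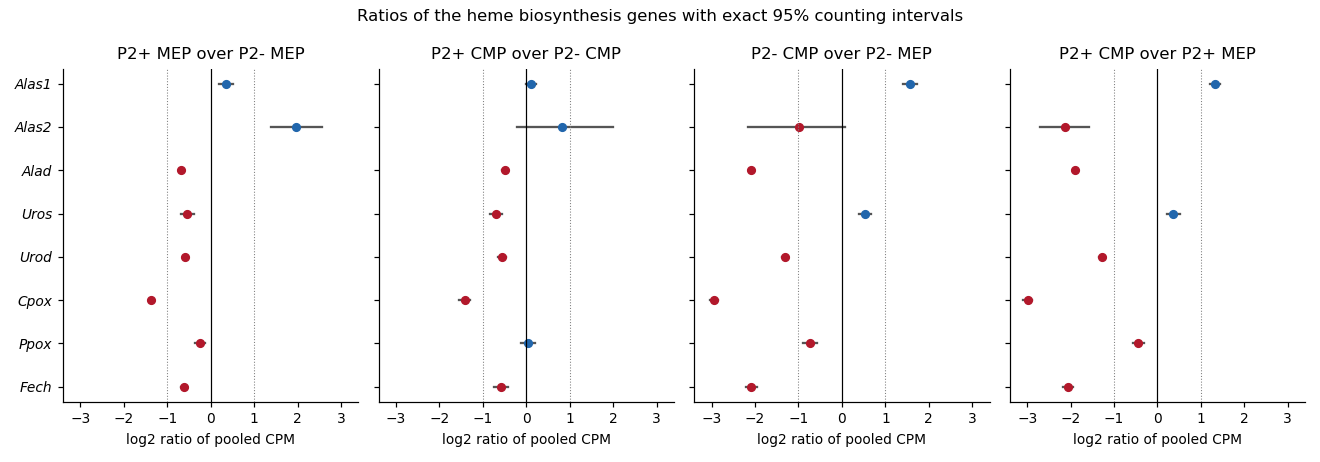
Log2 ratio of pooled CPM of the 8 genes in the 4 comparisons, with exact conditional 95% counting intervals as lines, the 2-fold limits as dotted lines, and red for a ratio below 0. Cpox lies beyond -1 in all 4 comparisons, Alad, Urod and Fech in both comparisons of CMPs with MEPs, and Alas1 beyond 1 in both of the latter.

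The remaining comparisons set CMPs against MEPs, first among P2- and then among P2+ cells. Each population enters 2 of the 4 comparisons, so they are not independent of each other. Among P2- cells, 4 of the 8 genes were at least 2-fold lower in CMPs, where 6.87% of 9238 genes were. Cpox was 7.69-fold lower (log2 ratio -2.94, -3.03 to -2.86), Alad 4.26-fold (-2.09, -2.14 to -2.04), Fech 4.24-fold (-2.08, -2.21 to -1.96) and Urod 2.47-fold (-1.31, -1.38 to -1.23). Alas1 was the 1 gene at least 2-fold higher, where 11.9% of genes were, at 2.96-fold (1.57, 1.41 to 1.72). Alas1 thus lay on the opposite side of Alad, Urod, Cpox and Fech. Ppox was 1.66-fold lower, Alas2 had an interval from -2.17 to 0.07, and Uros was 1.44-fold higher (0.53, 0.38 to 0.67), which became -0.31 without the highest cell of each population. The median over the 8 genes was -1.15, against -0.01 over all genes.

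Among P2+ cells the same comparison gave 5 of 8 genes at least 2-fold lower in CMPs, where 7.57% of genes were, and 1 higher, where 7.9% were. Alas2 was among the 5, though it did not meet the limit of a read in 25% of cells behind these shares. With ERCC reads 4 were lower, where 2.95% of genes were, since Urod was then at -0.84. Cpox was 7.92-fold lower (log2 ratio -2.99, -3.09 to -2.88), Fech 4.15-fold, Alad 3.74-fold and Urod 2.41-fold. Alas2 was 4.34-fold lower (-2.12), on 35 reads against 132, and without the highest cell of each population, which held 33 of the 35, it was at -5.14, so its size rested on single cells. Alas1 was 2.50-fold higher (1.32, 1.20 to 1.45). All 42 P2+ CMPs lay below the median P2+ MEP for Cpox and for Alad, and 38 did for Urod. For Alas1, 30 of 42 P2+ CMPs lay above the median P2+ MEP, which was at 0. The median over the 8 genes was -1.59, against -0.06 over all genes.

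The sort itself was visible beside these ratios. Cd34, which separates the gates, was at 0.0327 CPM in the P2- MEPs, 13.05 in the P2+ MEPs, 274.3 in the P2- CMPs and 541 in the P2+ CMPs, and Kit was between 259.3 and 369.4 CPM in all 4. Granulocyte and monocyte genes had a summed 16.3 CPM in the P2- MEPs and 66.6 in the P2+ MEPs, against 435 and 698 in the CMPs, with Elane, Ctsg and Csf3r at 0 in the P2- MEPs. Megakaryocyte genes were at 46.6 and 398 CPM in the MEPs against 441 and 528 in the CMPs. Late erythroid genes were at 484 and 149 CPM against 249.96 and 125, with 6 of 7 at least 2-fold lower in the P2- CMPs than in the P2- MEPs and the globin Hbb-bt, the 1 higher, making up 232.2 and 121 CPM of the sums in CMPs. Mast cell and basophil genes were at 0.327 and 2.69 CPM against 72.8 and 34.2, nearly all from Cpa3, with Gzmb and Ms4a2 at 0 in all populations. The part of these markers in the levels of the heme genes was not tested. Adgre1, Cd5l, C1qa and C1qb of the macrophage list and Ahsg of the hepatocyte list were at 0 in all populations, and the hepatocyte genes summed to 10.6 to 24.7 CPM. Reads on mouse genes ran from 295064 to 1540631 per cell, the population sums from 18334696 to 36351033, and ERCC RNA took a median of 1.46% to 2.48% of the counted reads. A count of 3 reads in a whole population correspond to 0.0825 to 0.164 CPM.

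Across the 172 cells the genes that followed each other were those with the MEP-high order. Spearman's rho of CPM was 0.79 between Alad and Cpox, 0.59 between Alad and Urod, 0.56 between Cpox and Urod and 0.54 between Cpox and Fech. Alas1 had a rho of -0.25 with Cpox and -0.18 with Alad. All cells shared the pool of livers, and the rho with reads per cell was -0.37 for Cpox, -0.27 for Alad and 0.19 for Alas1. Within single populations Alad and Cpox had a rho of 0.23 in the P2- MEPs, 0.57 in the P2+ MEPs, 0.40 in the P2- CMPs and -0.04 in the P2+ CMPs, so much of the correlation over all cells lay between the populations.

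Among 9237 other genes read in 25% of cells, Klf1, the erythroid Krüppel-like factor, had the pattern most like Cpox (rho 0.83) and most like Alad (0.82) and Fech (0.56). Metallothionein Mt1 (0.82) and Tnfaip2 (0.82) followed for Cpox, and Blvrb, a biliverdin reductase, (0.82) and Mt1 (0.80) for Alad. For Urod the order was Blvrb (0.62), Alad (0.59) and Mt1 (0.59), and for Fech Blvrb (0.54) and Cpox (0.54) came after Klf1. Alas1 was most like Il16 (0.38), Lsp1 (0.36), Limd2 (0.35), Acap1 (0.35) and Gcnt2 (0.35). The highest rho was 0.28 for Alas2, 0.33 for Uros and 0.29 for Ppox, and these weak correlations in sparse counts, those of Alas1 included, are no finding. Cpox and Klf1 had a rho of 0.32 in the P2- MEPs, 0.55 in the P2+ MEPs, 0.68 in the P2- CMPs and 0.21 in the P2+ CMPs.

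Heme genes were also read without Klf1. In thinned P2- MEPs all 56 cells had a read of Klf1, of Alad and of Cpox. In P2+ MEPs, 40 of 47 cells had a read of Klf1, and Cpox was read in 35 of these and in all 7 others. In P2- CMPs, 13 of the 14 cells with Klf1 had a read of Cpox, against 5 of the 13 without it. Only 2 of 42 P2+ CMPs had a read of Klf1, while 19 had a read of Cpox and 38 of Alad.

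**Figure D4:**
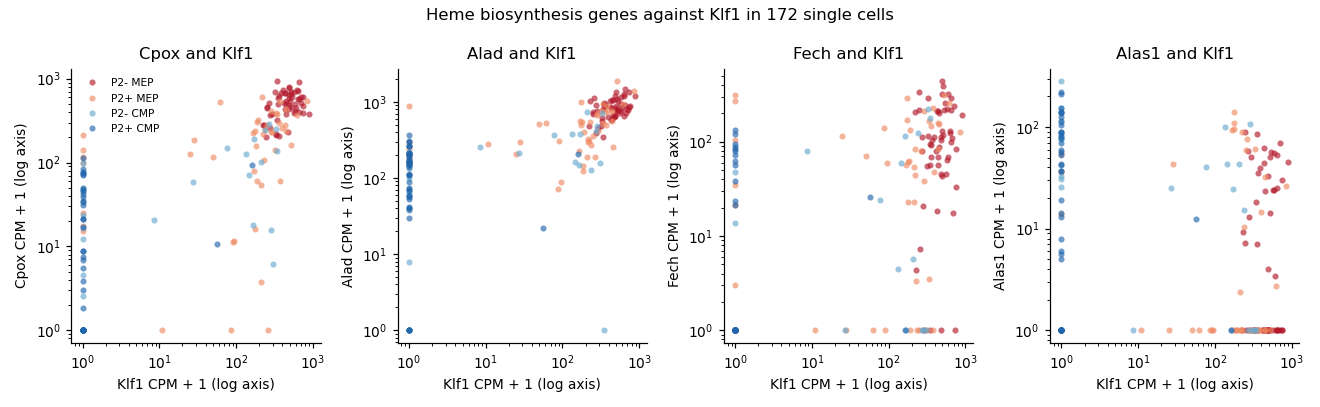
CPM + 1 of Cpox, Alad, Fech and Alas1 against CPM + 1 of Klf1 (log axes) in 172 cells, coloured by population. P2- MEPs lie at the upper right for Cpox and Alad, most P2+ CMPs lie at 0 for Klf1 with Alad still read, and Alas1 is spread over both.

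The genes around the pathway were described from lists of their roles, counting genes with at least 10 reads in the compared populations together. Of all 15631 genes past that limit, 15.1% were at least 2-fold lower in the P2- CMPs than in the P2- MEPs and 25.8% higher, with a median log2 ratio of 0.09. Of 15769 in the MEP comparison, 12.5% were lower in the P2+ MEPs and 20.4% higher, with a median of 0.06. Of 12 genes of porphyrin and heme transport, 6 were at least 2-fold lower in the P2- CMPs than in the P2- MEPs and 0 higher, with a median of -1.07. Of these 6, Flvcr2 rested on 18 reads against 0, 14 of them in 1 cell, and Abcb6 on 21 against 4. Tspo2, an erythroid paralogue of the translocator protein Tspo, was at 81.3, 24.5, 5.95 and 0 CPM in the P2- and P2+ MEPs and P2- and P2+ CMPs, and the heme exporter Flvcr1 at 34.9, 16.7, 13.2 and 5.64 CPM. Both followed the order of Cpox and Alad. Slc25a38, a mitochondrial glycine carrier, was at 61.4, 35.9, 32.3 and 23.2 CPM, in the same order but with overlapping intervals of P2+ MEPs and P2- CMPs, whereas Tmem14c, a porphyrinogen transporter, was highest in the P2+ MEPs, at 353.5 CPM. In P2+ MEPs against P2- MEPs 2 of the 12 were lower and 0 higher, with a median of -0.02.

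Among 16 genes of iron and iron-sulfur supply, 5 were at least 2-fold lower in the P2- CMPs than in the P2- MEPs and 0 higher (median -0.52), and 1 was lower in P2+ than in P2- MEPs (median -0.29). That gene was the transferrin receptor Tfrc, at 260, 95.1, 49.3 and 23.1 CPM, again in the order of Cpox. Glrx5, which serves iron-sulfur cluster assembly, was at 757, 498, 262.7 and 254.7 CPM. Of 9 genes that supply glycine and succinyl-CoA, 1 was lower and 0 higher (median 0.16) in the P2- CMPs, and Shmt2 was at 437, 420, 339.3 and 343.9 CPM. Of 9 genes of heme breakdown and sensing, 3 were higher and 3 lower (median -0.61) in the P2- CMPs. Among the lower, Hmox1 had 136 of its 181 reads of the P2- MEPs in 1 cell. Among the higher, Nr1d2 had 82 of its 139 reads of the P2- CMPs in 1 cell. Blvrb was at 442, 184, 26.998 and 14.99 CPM, while the constitutive heme oxygenase Hmox2 was at 35.4, 42.1, 90.8 and 86.1 CPM and the heme-binding repressor Bach1 at 2.97, 4.94, 7.85 and 11.4 CPM, both higher in CMPs as Alas1 was.

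Of 9 erythroid regulators, 4 were at least 2-fold lower in the P2- CMPs than in the P2- MEPs and 7 in the P2+ CMPs than in the P2+ MEPs, with 0 higher in either (medians -0.96 and -1.68). In the latter comparison 16.5% of 16572 genes with 10 reads were lower and 23.2% higher, with a median of 0.02. Klf1 was at 478, 243.5, 87.4 and 4.59 CPM, Gata1 at 265.9, 237.8, 103 and 43.6 and Epor, the erythropoietin receptor, at 181, 84.1, 50.2 and 22.8. All 3 thus took the order of Cpox, and between the MEP populations Epor was past 2-fold. Of the 5 regulators listed for Alas1, Ppargc1a was at 0 in all but the P2+ CMPs, where it was at 1.65 CPM, and Nrf1 was at 80.6, 59.0, 53.996 and 68.7. Of 7 globins, the targets of most erythroid heme, 5 were lower in P2+ than in the P2- MEPs and 6 lower and 1 higher in the P2- CMPs than in the P2- MEPs. The higher one was Hbb-bt, an adult beta globin, at 9.51, 9.79, 232.2 and 121 CPM, whereas the neighbouring copy Hbb-bs was at 65.6, 111, 0.545 and 0.605 CPM. Their counts are uncertain, since near-identical copies lose reads that map to both. Per kb, Hbb-bt stood at 330.4 CPM in the P2- CMPs and 172 in the P2+ CMPs, above each of the 8 heme enzymes there. Of 11 other hemoproteins, 9 had 10 reads in each comparison. In each of the 4 comparisons 0 of the 9 were at least 2-fold lower, where 12.5% to 16.5% of all genes were (14.7% of 16107 lower and 17.4% higher in P2+ against P2- CMPs), so in a list of this size nothing is read from it. In all but the comparison of the CMP populations 1 was at least 2-fold higher, Mpo, the granule peroxidase, at 2.22, 12.7, 216.5 and 431 CPM.

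**Figure D5:**
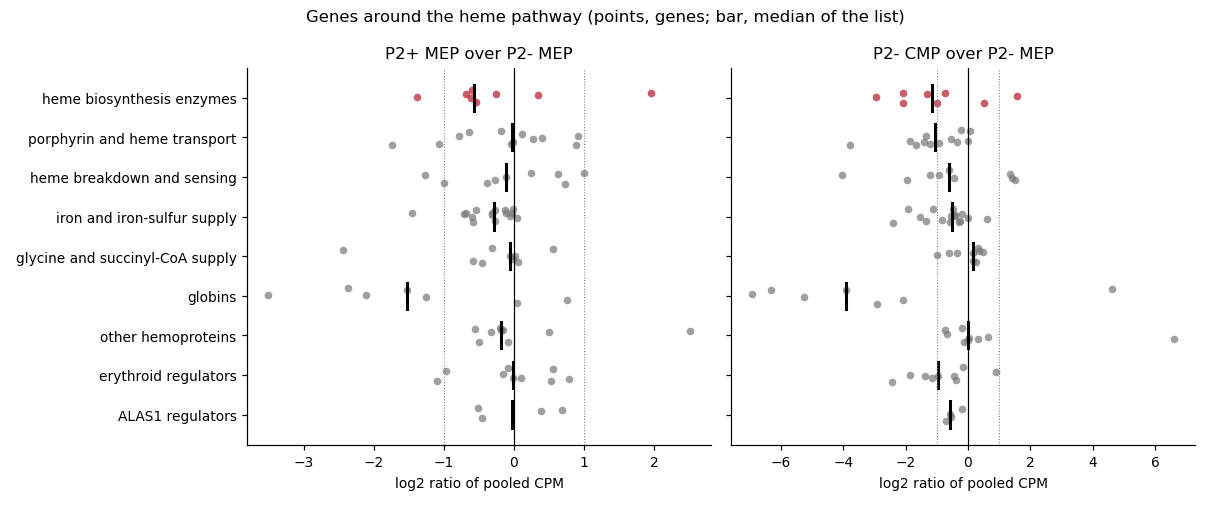
Log2 ratio of pooled CPM for the genes of each list with at least 10 reads, in P2+ over P2- MEPs and in the P2- CMPs over P2- MEPs, where points are genes, bars the median of a list and dotted lines the 2-fold limits. The heme enzymes have medians of -0.57 and -1.15, and the glycine and succinyl-CoA genes of -0.06 and 0.16.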

How the data were processed

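Single progenitors were sequenced by Smart-Seq2, which carries no molecular identifiers. According to the labels and the study's methods, the authors trimmed reads with Trimmomatic 0.36, aligned them with STAR 2.4.2a to GRCm38 and ERCC sequences, and counted them with HTSeq 0.6.1p1 on exons of GENCODE M12, without strand. The deposited values are raw counts per gene and cell, not normalized. The authors also deposited unmapped reads as a percent of all reads of each cell.

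As in the study's methods, cells with under 250000 reads, over 25% unmapped reads or over 15% ERCC reads were left out, and 172 of 175 remained. Of the uniquely mapped reads, 25.6% were ambiguous between genes and 7.40% on no gene; the 5 tally rows were kept out of totals. Reads were summed by population and divided by reads on mouse genes (scipy 1.17.1, pandas 2.3.3). Intervals at 95% were exact Poisson, exact conditional binomial for ratios and Clopper-Pearson for shares. Only those for ratios were run on simulated data. These were Poisson counts, for which such intervals are built, so the run does not bear on the spread between cells or animals. A population at 0 was set to 3 reads. Genes were called at 2-fold, and the background was genes with a read in 25% of cells, or, for the lists, genes with at least 10 reads in both populations together. Per-kb levels used merged exons of GENCODE vM21. Size factors came from DESeq2 1.42.0. Flvcr1 and Flvcr2 were matched by gene identifier.

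The 8 genes, the lists and the comparisons were chosen with earlier results of these data known. Genes that could be named were the 8 genes, the genes of the lists and, for each of the 8, the 3 genes of highest rho (5 for Alas1 and Alas2). Those of highest rho with Alas2, Uros and Ppox were not printed.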

Additional observations from a re-analysis of the deposited data

How the results depend on the processing

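Every population was 1 pool of livers, so no alternative measures the spread between animals, and lowly read genes are limited by single cells. No paired analysis was possible because each population is 1 sample and the cell numbers pair nothing. Of 32 log2 ratios, ERCC reads as the denominator moved 29 beyond their counting interval, leaving out the highest cell of each gene and population moved 14, equal cell weights 11, size factors 6, leaving out the P2- CMP labelled MEP 4, leaving out mitochondrial genes and Rn18s-rs5 from the denominator 2, and every deposited cell 0. ERCC reads shifted the median of all genes by -0.62, 0.33, -0.52 and 0.43 in P2+ against P2- MEPs, P2+ against P2- CMPs, P2- CMPs against MEPs and P2+ CMPs against MEPs, and DESeq2 size factors by -0.10 and -0.11 in both comparisons of CMPs with MEPs. The sign changed for 4 ratios. Alas1 in MEPs went to -0.27 with ERCC reads, Alas2 in CMPs to -1.58 and Uros in P2- CMPs against MEPs to -0.31 without the highest cells, and Ppox in CMPs to -0.09 with equal weights. The ratios of Alad, Urod, Cpox and Fech kept their sign under the 7 alternatives in all 4 comparisons, and those of Cpox stayed between -3.46 and -1.09. Genes lower in P2+ MEPs were 4 of 8 at 1.5-fold, where 9.28% of 9238 genes were, and 5 with ERCC reads, where 17.6% were, in place of 1 and 2.77%. In CMPs 2 were lower at 1.5-fold (13.6% of all genes) and 2 without the highest cells (4.29%), in place of 1 and 4.57%, and 1 was higher at 1.5-fold (10.6%) and 1 with ERCC reads (8.32%), in place of 0 and 3.6%. In P2- CMPs against MEPs 6 were lower at 1.5-fold (17%) and with ERCC reads (21.1%), and 5 with size factors (8.36%) and without the highest cells (10.5%), in place of 4 and 6.87%. In P2+ CMPs against MEPs 4 were lower with ERCC reads (2.95%), in place of 5 and 7.57%. The share of Alas2 without division by length was 5.85%, 15.9%, 1.05% and 1.71% in P2- and P2+ MEPs and P2- and P2+ CMPs, with the principal transcript 8.61%, 22.3%, 1.58% and 2.57%, and without the highest cells 7.39%, 19.9%, 1.13% and 0.278%. With genes of at least 10 reads over all 4 populations, the share of all genes at least 2-fold higher and lower was 18.96% and 12.6% in MEPs, 15.9% and 15.1% in CMPs, 24.6% and 13.6% in P2- CMPs against MEPs and 22.2% and 16.5% in P2+ CMPs against MEPs. With at least 1 read it was 18.8% and 14.2%, 13.1% and 17.7%, 25.5% and 11.3%, and 21.6% and 17.5%. Against these wider backgrounds the counts in MEPs (1 higher, 1 lower of 8) and in CMPs (0 and 1) were near the share of all genes. The cause of these shifts was not tested.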
